A study of Mus musculus with 4 samples.

Results

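The endoplasmic reticulum (ER) folding and secretory pathway was followed through 38 genes, chosen by symbol from a list and all found among the 21885 genes counted in 4 mouse heart sections. By role they were 9 lumenal chaperones, 4 disulfide isomerases, 2 lectin chaperones, 5 stress transcription factors, 4 genes of ER-associated degradation, 10 genes of the translocon and signal peptidase and 4 genes of vesicle traffic. The sections came from an uninjured control heart, from a heart 3 days after myocardial infarction (3 dpi) and from 2 hearts at 5 dpi, 1 section per heart. Polyadenylated RNA was captured on Visium slides, a grid of spots that each cover several cells, and read out as counts of unique molecular identifiers (UMIs), that is, of captured RNA molecules. All 4 mice were labelled Collagen1a1-GFP+, a reporter in which the promoter of a collagen gene drives GFP in fibroblasts, and were 8 to 12 weeks old. Infarction was made by permanent ligation of the left anterior descending coronary artery, and the control animal had no infarct. The control and the 3 dpi mouse were labelled female. The 5 dpi mice carried opposite sex labels, and their sections are called 5 dpi F (female) and 5 dpi M (male) after those labels only: 4 Y-linked genes went against them, with 704 UMIs in 5 dpi F and 1 UMI in 5 dpi M. The control is 1 heart, as is 3 dpi, so that differences between hearts and between time points cannot be told apart there.

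Secreted and membrane proteins enter the ER through the Sec61 channel, lose their signal peptide, are folded with the help of chaperones and disulfide isomerases, and leave in vesicles coated with COPII. Proteins that do not fold are pulled back and degraded, and when they pile up the unfolded protein response, through the sensors IRE1, PERK and ATF6, raises the genes of the whole machinery. Cells that secrete much, such as fibroblasts laying down collagen or plasma cells making antibody, keep this machinery high, while cardiomyocytes hold most of their protein in the contractile apparatus.

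The upstream sequences are shown because many of these genes share a word there that the rule did not use. The ER stress response element (ERSE), at which ATF6 and the transcription factor NF-Y act together, was searched as CCAAT, 9 bases of any kind and CCACG, on both strands, in the 250 bases before the start of each gene in RefSeq's table (build GRCm38.p6). The table held 30 of the 38 members, and 8 of these 30 (26.7%) carried the element, against 35 of all 27025 genes in the table (0.13%). The best known is that of Hspa5, which encodes BiP, the main ER chaperone, and its 250 upstream bases at chr2:34771840-34772089 on the plus strand are given 5′ to 3′ with the fixed letters of the ERSE in capitals:
Hspa5: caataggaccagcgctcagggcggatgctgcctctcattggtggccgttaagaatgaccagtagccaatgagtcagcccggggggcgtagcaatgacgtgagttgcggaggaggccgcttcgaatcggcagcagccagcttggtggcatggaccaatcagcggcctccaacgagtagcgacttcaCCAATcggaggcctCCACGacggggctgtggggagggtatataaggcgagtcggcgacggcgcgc

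The other elements are printed on their gene's own strand with 5 bases on each side, so that an element on the opposite strand reads CGTGG first and ATTGG last. Their coordinates are those of the 19 bases of the element:
Hsp90b1, chr10:86705638-86705656: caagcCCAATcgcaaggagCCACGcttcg
Hsp90b1, chr10:86705533-86705551: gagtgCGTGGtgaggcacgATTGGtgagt
Dnajc3, chr14:118937827-118937845: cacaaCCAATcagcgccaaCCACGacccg
Creld2, chr15:88819520-88819538: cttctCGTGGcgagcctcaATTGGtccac
Pdia6, chr12:17266491-17266509: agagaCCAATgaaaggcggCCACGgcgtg
Calr, chr8:84847075-84847093: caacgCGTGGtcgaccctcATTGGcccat
Canx, chr11:50325800-50325818: attgaCCAATcaccacgctCCACGaagaa
Syvn1, chr19:6046532-6046550: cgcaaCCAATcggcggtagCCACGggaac

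A shorter form, ERSE-II, was searched as ATTGG, 1 base and CCACG on both strands and was found upstream of 10 genes in the table (0.037%), of which Herpud1 was the member. It is shown with the same capitals and flanks:
Herpud1, chr8:94386377-94386387: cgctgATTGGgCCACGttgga

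The word TGACG followed by TGG or TGA, the core of the element bound by XBP1, lay upstream of 3 members, Hspa5, Kdelr3 and Sec24d (10% of 30, against 1.01% of all genes). The letters CCACG alone, which lie within both ERSE forms, were present upstream of 21 of 30 members (70%) and of 31% of all genes. A match of letters is a description of the sequence and says nothing of whether a factor was bound in these hearts.

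Spots under tissue were kept by the study's own limits on UMIs, genes and mitochondrial share, leaving 1146, 1741, 1535 and 1423 spots (control, 3 dpi, 5 dpi F, 5 dpi M) and 3742105, 8374573, 9540940 and 8314946 UMIs of genes not encoded in mitochondria. Levels are given as CPM, the UMIs of a gene per 1000000 of these. All 38 members were counted in each section, from 26 UMIs of Creb3l1 in the control to 9870 UMIs of Sec61g in 5 dpi F. The heart tissue carried its defining markers, with 12 cardiomyocyte genes taking 10.1% of these UMIs in the control and 4.53%, 1.98% and 3.71% in the infarcted sections. Values of the 3 infarcted sections are always given in the order 3 dpi, 5 dpi F, 5 dpi M. Intervals of levels are exact 95% intervals that cover counting error only. In spots, as in any bulk sample, fewer cells of a type and less RNA per cell cannot be told apart.

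The first question was how far the pathway as a whole differed between an infarcted and an uninjured heart. The 38 members together stood at 4170 CPM in the control (95% interval 4105 to 4236) and at 8946, 9525 and 7344 CPM in the infarcted sections. Every infarcted section was above the control, by 2.15-fold at 3 dpi (2.11 to 2.18) and by 2.28-fold and 1.76-fold at 5 dpi. With 1 control section and 1 at 3 dpi there was no replicate check and no test across hearts. The spread between the 2 hearts at 5 dpi, a mean ratio of 2.02 ± 0.37 (SD, n = 2), took in the 3 dpi value. Scaling by TMM, which takes the typical gene as unchanged, lowered the ratio at 3 dpi to 1.58, and the mean at 5 dpi to 1.502.

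Taken by role, the gain was widest in the vesicle genes and the isomerases. Vesicle traffic genes went from 99.9 CPM in the control to 353, 446 and 308 CPM, and disulfide isomerases from 417 CPM to 1550, 1736 and 1239 CPM. The translocon and signal peptidase gained less in proportion, from 1357 CPM to 2898, 3210.5 and 2911 CPM. The 4 genes of ER-associated degradation summed to 239 CPM in the control and 258, 264 and 211 CPM in the infarcted sections, a sum in which Herpud1, with 643 of the 895 UMIs in the control, was lower in all 3 infarcted sections while Edem1, Syvn1 and Sel1l were higher. Of the 38 members, 31 were higher in all 3 infarcted sections than in the control (81.6%, against 64.4% of the 8433 genes with a mean of at least 10 CPM) and 3 were lower in all 3 (7.89%, against 24%). At least 2-fold higher in the nearest infarcted section were 14 members (36.8%, against 23.6%), and 0 were lower by as much (against 4.91%).

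The widest gains were those of Kdelr3, Creb3l1 and Edem1. Creb3l1, an ER-bound transcription factor that acts on collagen genes, stood at 6.95 CPM in the control and at 62.5, 70.9 and 42.6 CPM in the infarcted sections. Kdelr3, a receptor that returns escaped ER proteins from the Golgi, stood at 9.89 CPM against 68.8, 95.5 and 61.9 CPM. Edem1, which marks misfolded glycoproteins for degradation, stood at 11.2 CPM against 70.9, 80.5 and 57.5 CPM. For all 3 genes the lowest infarcted section was more than 5-fold above the control. P4hb, which is both a disulfide isomerase and a subunit of the enzyme that hydroxylates collagen, went from 148 CPM to 633, 767 and 518 CPM. Hspa5 did not share this gain: the control stood at 573 CPM, below 813 and 679 CPM but above the 467 CPM of 5 dpi M. Below the control in every infarcted section were Herpud1, a scaffold of the degradation complex, at 172 CPM against 98.6, 79.6 and 81.1 CPM, Dnajb9, a co-chaperone of BiP that restrains IRE1, at 45.2 CPM against 35.9, 26.2 and 23.7 CPM, and, with 3 dpi almost level, Atf6 at 31.8 CPM against 31.4, 30.6 and 24.5 CPM.

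The cell makeup of the infarcted sections differed from that of the control. Over the same sections, 12 matrix genes of fibroblasts went from 1518 CPM in the control to 15392, 31645 and 23005 CPM, and 12 macrophage genes from 2423 CPM to 12706, 20711 and 15296 CPM. All 12 genes of each list were counted in every section. Endothelial genes were lower, at 1668, 1244 and 2171 CPM against 2669.6 CPM in the control, as were mural genes, at 285, 366 and 346 CPM against 542 CPM, while erythroid genes stood at 4036, 23384 and 12926 CPM against 8667 CPM. Among the infarcted sections the order was not the same: 5 dpi M had more matrix and macrophage RNA than 3 dpi and a lower sum of the members. Set against the matrix genes, the members stood at 275 UMIs per 100 matrix UMIs in the control and at 58.1, 30.1 and 31.9 in the infarcted sections. Plasma cell markers were near 0: of the 6 listed, 3 were in the gene table, and these together had 1 UMI in the control and 28, 57 and 31 UMIs in the infarcted sections. The part of cell makeup in the members' gain was not tested.

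The second question was where in the infarcted hearts the members were high. Zones were set from the 12 cardiomyocyte genes alone. Low spots had a share of cardiomyocyte UMIs under 0.5 times the 90th percentile of their section. The infarct zone (IZ) held connected patches of at least 10 low spots. Spots that were not low formed border zone 2 (BZ2) up to 2 steps outside it and border zone 1 (BZ1) at 3 or 4 steps. Those farther out formed the remote zone (RZ), and low spots in smaller patches entered no zone. The IZ held 882, 1061 and 684 spots and the RZ 380, 200 and 533 spots. The summed members stood at 11102, 10608 and 9338 CPM in the IZ, at 6671, 5913 and 5193 CPM in BZ2, at 5603, 5760 and 4923 CPM in BZ1 and at 4657, 4683 and 4353 CPM in the RZ. In each section the level was lower with every zone away from the infarct, and in the RZ it came closest to the 4170 CPM of the control, staying above it.

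**Figure D1:**
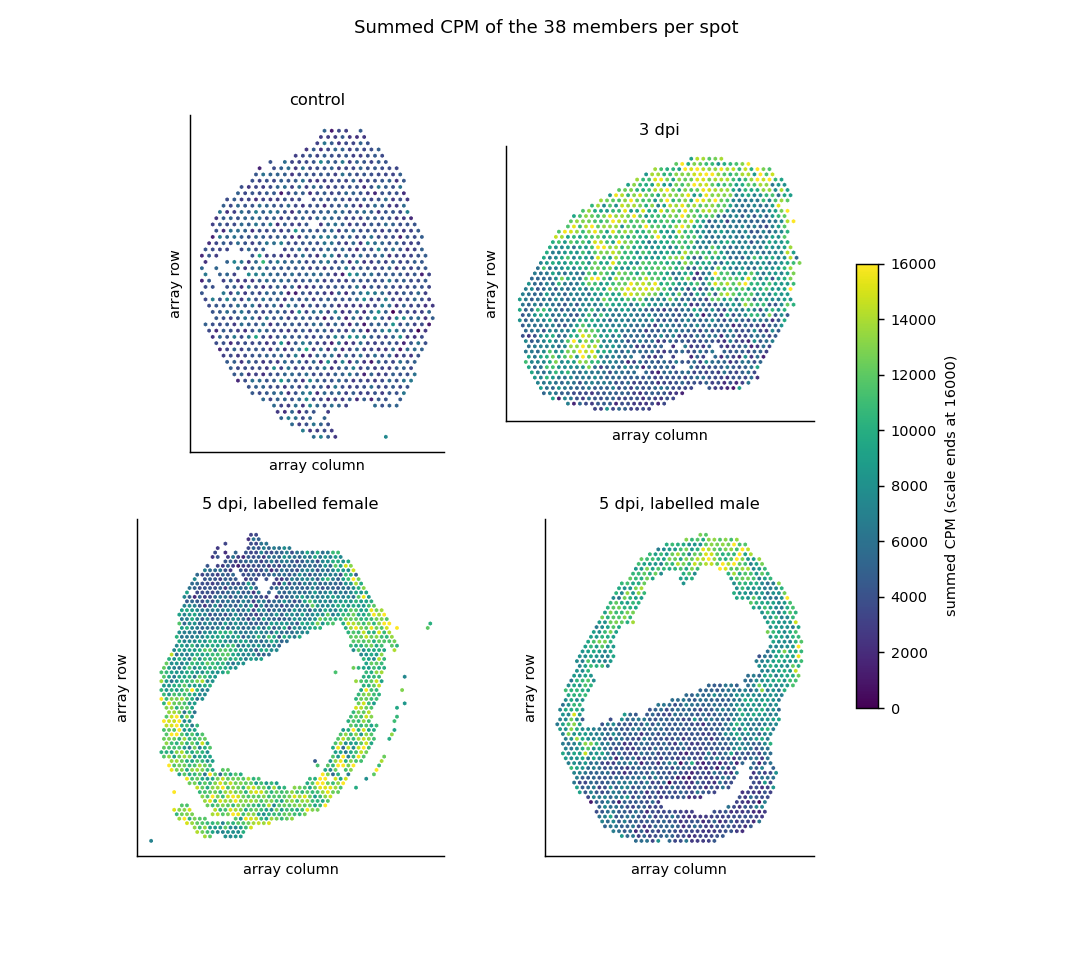
Summed CPM of the 38 members in each kept spot of the 4 sections, placed by array row and column, on 1 colour scale that ends at 16000 CPM. The control section is low throughout, and in the infarcted sections high spots lie mostly in the upper part of the 3 dpi section as drawn, with smaller patches below, and along the thin rim around the empty middle of both 5 dpi sections.

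Between IZ and RZ, 28 of the 38 members were higher in the IZ and 3 were lower, by edgeR's quasi-likelihood test on UMIs summed per zone and section, with the section as a block and Benjamini-Hochberg adjustment over 9444 genes (threshold 0.05). That is 73.7% of the members called higher, against 26.8% of all genes tested, and 7.89% called lower, against 27% of all genes. The median log2 fold change was 0.91 over the members and 0.05 over all genes. These fold changes are relative to TMM scaling: with scaling to library size alone the median of all genes moved up by 0.43 (by 0.16 where BZ2 was set against RZ, and by 0.26 between IZ and BZ2), 35 members were called higher (against 49.2% of all genes) and Herpud1 alone was called lower (against 17.1%). In plain CPM, 30 of the 31 called members went the same way in all 3 sections, the exception being Dnajb9. Values of other cell types moved with the zones too, with matrix genes at 19914, 36453 and 34327 CPM in the IZ against 5189, 7602 and 5467 CPM in the RZ, and macrophage genes at 17398, 24543 and 23373 CPM against 4270, 4610 and 3542 CPM. All 12 genes of both lists rose in the IZ, neutrophil genes stood at 225 to 256 CPM there against 21.8 to 80.0 CPM in the RZ, and plasma cell markers at 3.31 to 6.25 CPM against 0 to 1.61 CPM, with 21.4 CPM (11 UMIs) in BZ2 of 5 dpi M as their highest. Other lists were lower in the IZ: endothelial genes stood at 1609, 982 and 1290.5 CPM there against 1743, 2326 and 3416 CPM in the RZ, with 4 of 6 called lower, and erythroid genes at 3331, 22826 and 11897 CPM against 6873, 33251 and 15423 CPM, with 4 of 4 called lower. The part of all these cells in the members' difference was not tested.

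**Figure D2:**
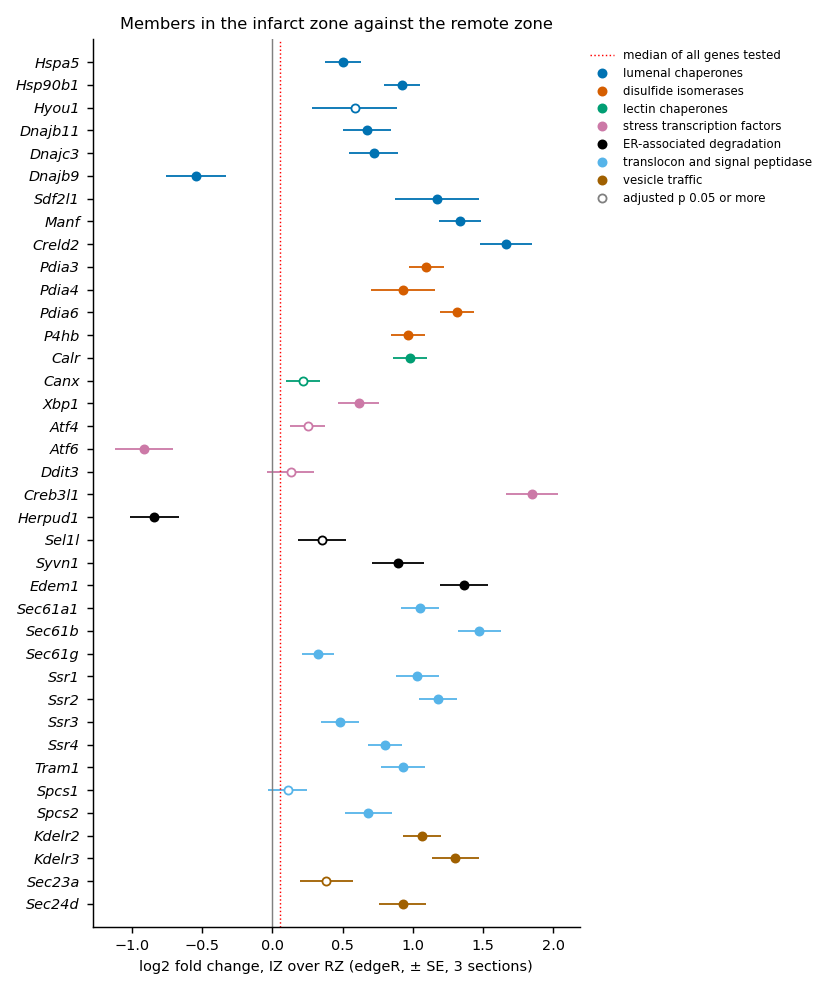
Log2 fold change of each member in the infarct zone over the remote zone (x axis; edgeR with TMM scaling, bars ± SE, 3 sections), coloured by role, with open circles for adjusted p of 0.05 or more. Creb3l1 lies farthest right at 1.85 and Atf6 farthest left at -0.92, and the dotted line marks the median of all genes tested at 0.05.

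Among the lumenal chaperones, 7 of 9 rose in the IZ, with a median log2 fold change of 0.72. Creld2, a secreted disulfide-exchange protein induced by ER stress, stood at 147, 115 and 95.7 CPM in the IZ and at 21.1, 28.7 and 30.6 CPM in the RZ. All 3 IZ values lay above all 3 RZ values, and the difference was 1.66 ± 0.18 (log2 ± SE, adjusted p = 1.55e-07), the largest of this role. Manf, a secreted cofactor of BiP, stood at 419, 362 and 309 CPM against 110, 99.1 and 108 CPM (1.34 ± 0.15). Hsp90b1, the ER form of HSP90, stood at 942, 798 and 652 CPM against 300, 357 and 277 CPM (0.92 ± 0.13). Hspa5 had the smallest rise of the chaperones called, with 1016, 746 and 567 CPM in the IZ and 429, 449 and 329 CPM in the RZ. Its difference was 0.50 ± 0.13 (adjusted p = 0.0024) and did not pass without the section block (adjusted p = 0.064). Dnajc3 and Dnajb11, co-chaperones of BiP, rose by 0.72 and 0.67, and Sdf2l1, which works with them, by 1.17. Hyou1, the exchange factor of BiP, was rarely counted, at 24.8, 15.5 and 8.47 CPM in the IZ against 11.3, 10.7 and 3.22 CPM, and did not pass (0.59 ± 0.30, adjusted p = 0.11).

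Dnajb9 was the exception among the chaperones. It stood at 34.5, 27.4 and 20.7 CPM in the IZ and at 43.7, 22.7 and 24.6 CPM in the RZ, so that the zones overlapped and 5 dpi F went up in plain CPM. Its call (-0.55 ± 0.21, adjusted p = 0.036) was lost with library size alone, with DESeq2, without the section block, and without the 3 dpi section or 5 dpi M (adjusted p = 0.196 and 0.12).

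All 4 disulfide isomerases rose in the IZ, with a median of 1.03. Pdia6 stood at 640.0, 573 and 566 CPM in the IZ and at 188, 179 and 169 CPM in the RZ, with no overlap and a difference of 1.32 ± 0.12 (adjusted p = 1.21e-08). Pdia3, the isomerase that works with the lectin chaperones on glycoproteins, stood at 528, 497 and 406 CPM against 178, 191 and 135 CPM (1.10 ± 0.13). P4hb stood at 763, 855 and 701 CPM against 322, 343 and 235 CPM (0.97 ± 0.12), and Pdia4 at 38.7, 34.7 and 19.6 CPM against 12.8, 17.9 and 7.25 CPM (0.93 ± 0.23). The lectin chaperones, which hold glycoproteins until their sugars are trimmed, differed in outcome. Calr, the soluble one, stood at 1132, 1158 and 872 CPM in the IZ and at 483, 406 and 317 CPM in the RZ and rose by 0.98 ± 0.12. Canx, its membrane-bound relative, stood at 433, 370 and 314 CPM against 303, 233 and 188 CPM, and its difference of 0.22 ± 0.12 did not pass (adjusted p = 0.135). The difference between the changes of Calr and Canx was not itself tested.

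The stress transcription factors moved apart from each other. Creb3l1 had the largest rise of all 38 members, with 89.2, 84.0 and 64.9 CPM in the IZ against 23.3, 16.7 and 10.5 CPM in the RZ (1.85 ± 0.18, adjusted p = 3.27e-08). Xbp1, whose mRNA is spliced by IRE1 to make an activator of secretory genes, stood at 136, 140.3 and 121 CPM against 54.2, 87.2 and 56.4 CPM (0.62 ± 0.15). The counts are per gene and do not tell spliced from unspliced Xbp1. Atf6, an ER membrane protein that moves to the Golgi under stress and is cut there to free an activator, was lower in the IZ in all 3 sections, at 27.9, 26.8 and 21.7 CPM against 36.1, 35.8 and 32.2 CPM. Its difference was -0.92 ± 0.21 (adjusted p = 0.00083), and with library size alone it was -0.49 (adjusted p = 0.050). Atf4, which is raised in translation through PERK, and its target Ddit3, the pro-apoptotic factor CHOP, did not pass, at 0.25 ± 0.12 and 0.13 ± 0.17. Ddit3 stood at 37.5, 40.8 and 51.0 CPM in the IZ and at 32.4, 25.1 and 30.6 CPM in the RZ.

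Among the genes of ER-associated degradation, Edem1 and Syvn1 rose and Herpud1 fell. Edem1 stood at 94.2, 92.5 and 79.2 CPM in the IZ against 21.8, 26.3 and 26.6 CPM in the RZ (1.36 ± 0.17). Syvn1, the ubiquitin ligase HRD1, stood at 41.5, 43.7 and 36.4 CPM against 15.8, 14.3 and 16.5 CPM (0.90 ± 0.19). Sel1l, the partner of HRD1, did not pass at 0.35 ± 0.17. Herpud1 stood at 78.9, 75.2 and 79.6 CPM in the IZ and at 153, 80.0 and 85.8 CPM in the RZ, so that its wide difference lay at 3 dpi, while both 5 dpi sections showed nearly equal CPM in the 2 zones. It fell by 0.84 on the log2 scale (SE 0.17, adjusted p = 0.00038) and was called lower under each of the 14 alternatives run, from -0.41 with library size alone to -0.98 without 5 dpi M. Without the 3 dpi section it was -0.51.

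**Figure D3:**
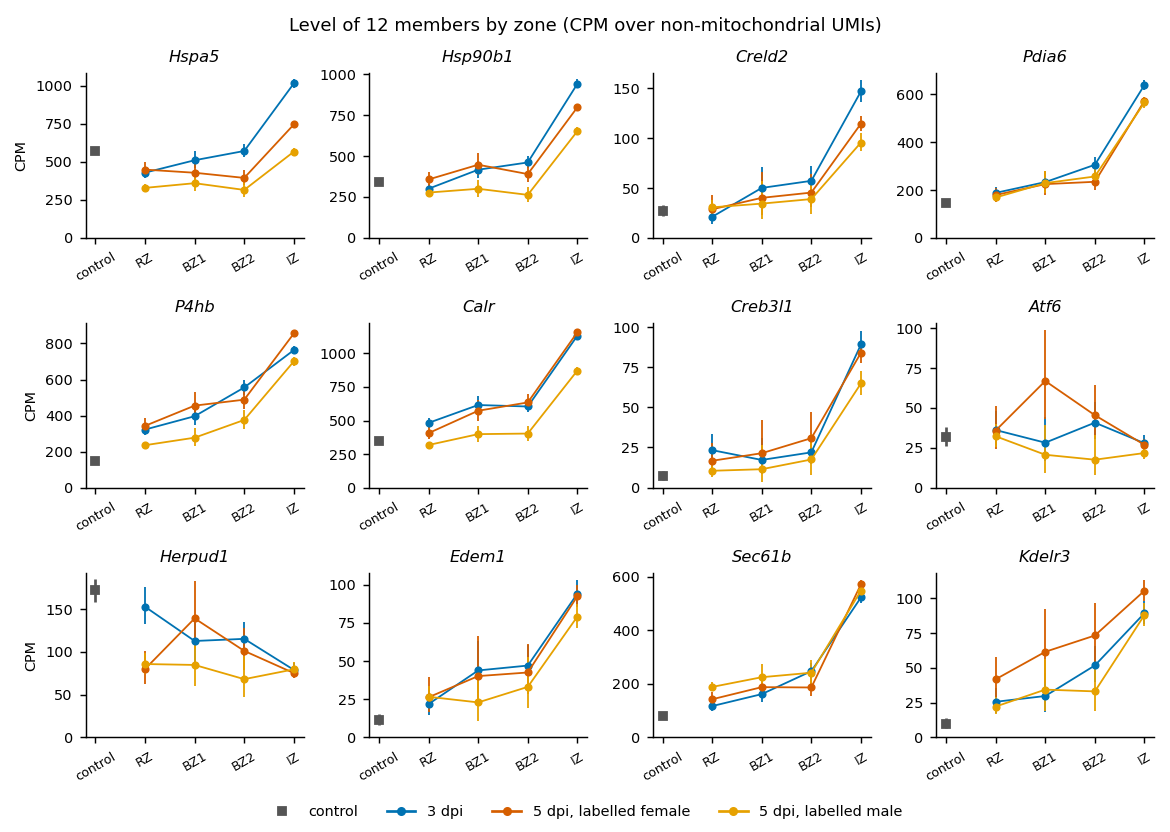
CPM of 12 members in the control section (square) and in the remote zone, both border zones and the infarct zone of the 3 infarcted sections (lines), with exact 95% counting intervals and each y axis starting at 0. Of the 12 members, 10 stand higher in the IZ than in BZ2 in all 3 sections, while Atf6 and Herpud1 do so only in 5 dpi M.

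Of the 10 genes of the translocon and signal peptidase, 9 rose in the IZ, with a median of 0.87. Sec61b, a small subunit of the channel, rose most, from 117, 142 and 188 CPM in the RZ to 522, 571 and 547 CPM in the IZ (1.47 ± 0.15, adjusted p = 6.74e-08). Its channel partners differed in size of change, with Sec61a1, the pore itself, at 1.05 ± 0.14 and Sec61g at 0.32 ± 0.12. Sec61g, at 1172, 1124 and 1309.7 CPM in the IZ and 667, 629 and 878 CPM in the RZ, was no longer called without 5 dpi F or without the section block. The translocon-associated proteins Ssr1 to Ssr4 rose by 1.03, 1.18, 0.48 and 0.80 (Ssr3 lost its call without 5 dpi F, adjusted p = 0.065), and Tram1, which helps chains through the channel, by 0.93. Of the 2 signal peptidase subunits, Spcs2 rose by 0.68 ± 0.17, and Spcs1 did not pass, at 226, 253 and 260.0 CPM in the IZ against 154, 147 and 218 CPM (0.11 ± 0.14). In vesicle traffic, the retrieval receptors Kdelr2 and Kdelr3 rose, Kdelr2 by 1.06 ± 0.13. Kdelr3 stood at 89.4, 105.5 and 88.0 CPM in the IZ and 25.6, 41.8 and 22.2 CPM in the RZ, with no overlap (adjusted p = 1.33e-06). Sec24d, the COPII subunit that picks cargo, rose by 0.93 ± 0.17, and Sec23a, its partner in the coat, did not pass (0.38 ± 0.19).

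Of the 8 members with an ERSE shown above, 7 rose in the IZ and Canx did not pass, with log2 fold changes from 0.22 to 1.66 and a median of 0.91. Of the 22 members in the table without one, 15 rose, 2 fell and 5 did not pass, with a median of 0.68. Herpud1, with its ERSE-II, was 1 of the 2 that fell. Of the 27 genes with an ERSE that are not members, 5 passed the filter on low counts, and 3 of these were called higher and 1 lower. Over all 9444 genes tested, 26.8% were called higher and 27% lower. Members with and without an ERSE were not set against each other by a test.

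The third question was whether surviving tissue next to the infarct already differed from remote tissue. Between BZ2 and RZ, 5 members were higher (13.2%, against 4.21% of 9444 genes) and 0 were lower (against 4.8%), by the same edgeR fit, with 12 higher and 0 lower at an unadjusted p under 0.05 (against 10.6% and 10.5% of all genes). The median was 0.27 over the members and 0.02 over all genes. P4hb stood at 556, 488 and 375 CPM in BZ2 and 322, 343 and 235 CPM in the RZ (0.51 ± 0.13, adjusted p = 0.014). The others called were Kdelr3 (0.72 ± 0.20), the translocon genes Ssr2 (0.51 ± 0.15) and Ssr4 (0.44 ± 0.13) and Pdia6 (0.42 ± 0.13). Matrix genes also rose in BZ2, to 11685, 18685 and 13705 CPM, all 12 of them called higher, and macrophage genes, 9 of 12. Cardiomyocyte genes, which set the zones, took 6.73%, 5.43% and 5.99% of UMIs in BZ2 against 9.81%, 8.69% and 8.18% in the RZ. All 4 erythroid genes were called lower in BZ2. The part of these cells in the members' difference was not tested. Hspa5 did not pass and its sections were split, with 572 CPM in BZ2 at 3 dpi, above its RZ, and 394 and 315 CPM at 5 dpi, below theirs (-0.09 ± 0.13). Calr (0.28 ± 0.12) and Herpud1 (-0.31 ± 0.20) did not pass either. The count depended on single settings: 0 members passed without 5 dpi F or without the section block, 1 without either other section, and 12 with library size alone (where 7.89% of all genes were called higher). For the other settings no share of all genes is given.

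Between IZ and BZ2, 27 members were higher (71.1%, against 14.5% of all genes) and 2 were lower (5.26%, against 19.9%), with a median of 0.58 over the members and 0.01 over all genes. Creb3l1 (1.56 ± 0.20), Creld2 (1.05 ± 0.19) and Sec61b (1.01 ± 0.15) had the largest differences. Matrix genes stood at 19914, 36453 and 34327 CPM in the IZ against 11685, 18685 and 13705 CPM in BZ2, with 8 of 12 called higher, and macrophage genes at 17398, 24543 and 23373 CPM against 7025, 7936 and 5924 CPM, with 12 of 12 called higher, and their part in the members' difference was not tested. Hspa5, at 571.6, 394 and 315 CPM in BZ2 and 1016, 746 and 567 CPM in the IZ, differed more from BZ2 (0.60 ± 0.13) than from the RZ, though the 2 comparisons share the IZ and were not set against each other by a test, and without the section block it was not called (adjusted p = 0.065). Atf6 and Herpud1 were lower in the IZ, by -0.74 ± 0.23 and -0.53 ± 0.19, but in 5 dpi M both were higher there in plain CPM. Without 5 dpi F the counts were 16 higher and 0 lower, with no share of all genes given for that setting.

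By distance, counted in spot steps from the edge of the IZ, the peak lay at a different depth in the sections. At 3 dpi the summed members were highest 3 to 4 steps inside the edge, at 12427 CPM (12226 to 12631), above 11713 CPM deeper in (11557 to 11870). At 5 dpi they were highest more than 4 steps inside, at 11315 and 9776 CPM, and stood at 9209 and 8009 CPM 3 to 4 steps inside. More than 8 steps outside, all 3 sections were near 4000 CPM, at 3980, 4087 and 4148 CPM. Hspa5 followed the sum, at 1176 CPM 3 to 4 steps inside at 3 dpi and 1110 CPM deeper in, against 564 and 818 CPM in 5 dpi F and 452 and 598 CPM in 5 dpi M. Herpud1 ran the other way at 3 dpi, from 71.5 CPM deep in the IZ to 161 CPM more than 8 steps outside.

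Across spots ranked by cardiomyocyte share, whatever their place, the members climbed in steps as that share fell. Shares are given relative to the 90th percentile of each section. From spots at 0.75 and over to spots under 0.1, the summed members went from 4795 to 12905 CPM at 3 dpi, from 4793 to 11365 CPM in 5 dpi F and from 4142 to 10033 CPM in 5 dpi M, with each bin above the one before. The control stood at 4161 CPM in its 1099 spots at 0.75 and over and at 4415 CPM in its 46 spots at 0.5 to 0.75. Between shares under 0.25 and shares of 0.75 and over, 35 members were higher in all 3 sections (92.1%, against 58.9% of 8473 genes) and 21 at least 2-fold higher (55.3%, against 16.1%), while Atf6 and Herpud1 were lower in all 3 (5.26%, against 22%). The cardiomyocyte genes are themselves in the total, at 9.84%, 8.47% and 8.59% of UMIs in the highest bin and 0.504%, 0.182% and 0.212% in the lowest. Their fall lifts the CPM of other genes, and the share of all genes stands beside these counts. The part of that lift in the counts was not tested.

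The climb was unbroken over all 5 bins in each of the 3 sections for 13 members (34.2%, against 5.65% of 8473 genes), among them Hsp90b1, Manf, Creld2, Pdia3, Pdia6, P4hb, Calr and Creb3l1. Creb3l1 went from 17.0, 17.5 and 9.62 CPM at the highest share to 116, 94.3 and 76.0 CPM at the lowest, a rise of 6.79-fold, 5.38-fold and 7.89-fold, the steepest of the members in both 5 dpi sections. At 3 dpi Creld2 was steeper, at 7.15-fold. Hspa5 rose by 2.70-fold, 1.89-fold and 1.97-fold over the same bins. By role the lowest bin over the highest was 3.32, 2.75 and 3.65 for the isomerases and 3.20, 2.35 and 2.41 for the lumenal chaperones. It was 1.45, 1.58 and 1.74 for the sum of ER-associated degradation, in which the genes went apart: Edem1 gave 4.94, 3.80 and 4.06, Syvn1 3.23, 2.68 and 2.31, Sel1l 1.77, 1.63 and 2.05, and Herpud1 0.53, 0.72 and 0.89. Herpud1 and Atf6 did not climb: Herpud1 went from 147, 97.2 and 82.7 CPM to 77.0, 70.2 and 73.3 CPM.

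**Figure D4:**
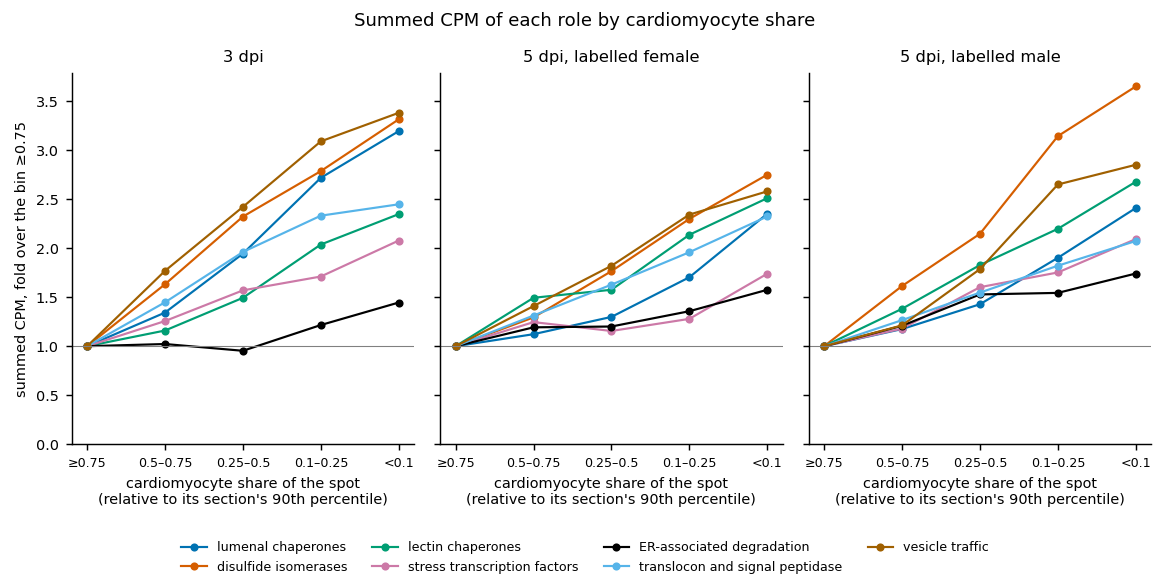
Summed CPM of each of the 7 roles in 5 bins of the spots' cardiomyocyte share (x axis, relative to the 90th percentile of the section, falling to the right), as a fold over the bin at 0.75 and over in the same section. Isomerases reach 2.75-fold to 3.65-fold in the lowest bin, and the degradation sum, in which Herpud1 falls and Edem1, Syvn1 and Sel1l rise, 1.45-fold to 1.74-fold.

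The fourth question was whether, inside the infarct, the members went with collagen-rich or with macrophage-rich tissue. The IZ spots of each section were ranked by matrix UMIs over the sum of matrix and macrophage UMIs and cut into 3 equal parts, and the matrix-rich part was set against the macrophage-rich one. Matrix genes stood at 23279, 43711 and 41533 CPM in the first and 15686, 28415 and 27282 CPM in the second, and macrophage genes at 9889, 14343 and 11727 CPM and 27143, 35524 and 36987 CPM. These choose the spots and are no result. The matrix-rich part also held more cardiomyocyte RNA, at 2.89%, 1.24% and 1.42% of UMIs against 0.997%, 0.159% and 0.183%. Its neutrophil genes were lower, at 141, 136 and 185 CPM against 406, 349 and 271 CPM, and its mural genes higher, at 246, 427 and 413 CPM against 168, 216 and 258 CPM. Erythroid genes were lower in it at 3 dpi, at 1938 against 5505 CPM, and higher at 5 dpi, at 31787 against 14632 CPM in 5 dpi F and 15188 against 8357 CPM in 5 dpi M. The part of these cells in the differences was not tested. The summed members differed little, at 10439, 10172 and 9339 CPM in the matrix-rich part and 11846, 10882 and 9396 CPM in the macrophage-rich part, while both stood above BZ2 in every section.

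Of the 38 members, 4 were higher in the matrix-rich part (10.5%, against 16.3% of 10532 genes) and 6 were lower (15.8%, against 13.6%), by the same edgeR test over 9 sums, with a median of -0.04 over the members and 0.01 over all genes. As counts these shares lay near those of all genes. With library size alone 11 members were called lower (against 15.5% of all genes). The members that were higher were Herpud1 (0.52 ± 0.12), Kdelr3 (0.38 ± 0.11), Ssr2 (0.33 ± 0.08) and P4hb (0.26 ± 0.08, adjusted p = 0.012). P4hb, the collagen hydroxylase subunit, stood at 784, 936 and 760.2 CPM in the matrix-rich part and 730, 785 and 616 CPM in the macrophage-rich part. The members that were lower were Sdf2l1 (-0.77 ± 0.18), Edem1 (-0.74 ± 0.12), Spcs2 (-0.47 ± 0.09), Creld2 (-0.38 ± 0.10), Sec61b (-0.26 ± 0.08) and Hspa5 (-0.22 ± 0.08). Edem1 stood at 74.7, 65.3 and 60.0 CPM in the matrix-rich part and 130.2, 111 and 103 CPM in the macrophage-rich part, lower in all 3 sections (adjusted p = 5.22e-05). All 10 called members went the same way in all 3 sections.

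The remaining 28 members did not pass, among them Creb3l1 (0.15 ± 0.11), Hsp90b1 (-0.15 ± 0.08) and Calr (-0.15 ± 0.07). The call of Hspa5 was lost in 7 of 14 alternatives, those of P4hb, Creld2 and Sec61b in 4, those of Ssr2 and Kdelr3 in 3 and those of Herpud1 and Sdf2l1 in 1, while those of Edem1 and Spcs2 were kept in all 14. P4hb was not called without the section block, with the IZ cut into 2 equal parts, or without either 5 dpi section, and Herpud1 not without 5 dpi F (adjusted p = 0.095). Without the section block 1 member stayed higher and 2 lower, with no share of all genes given for that setting.

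**Figure D5:**
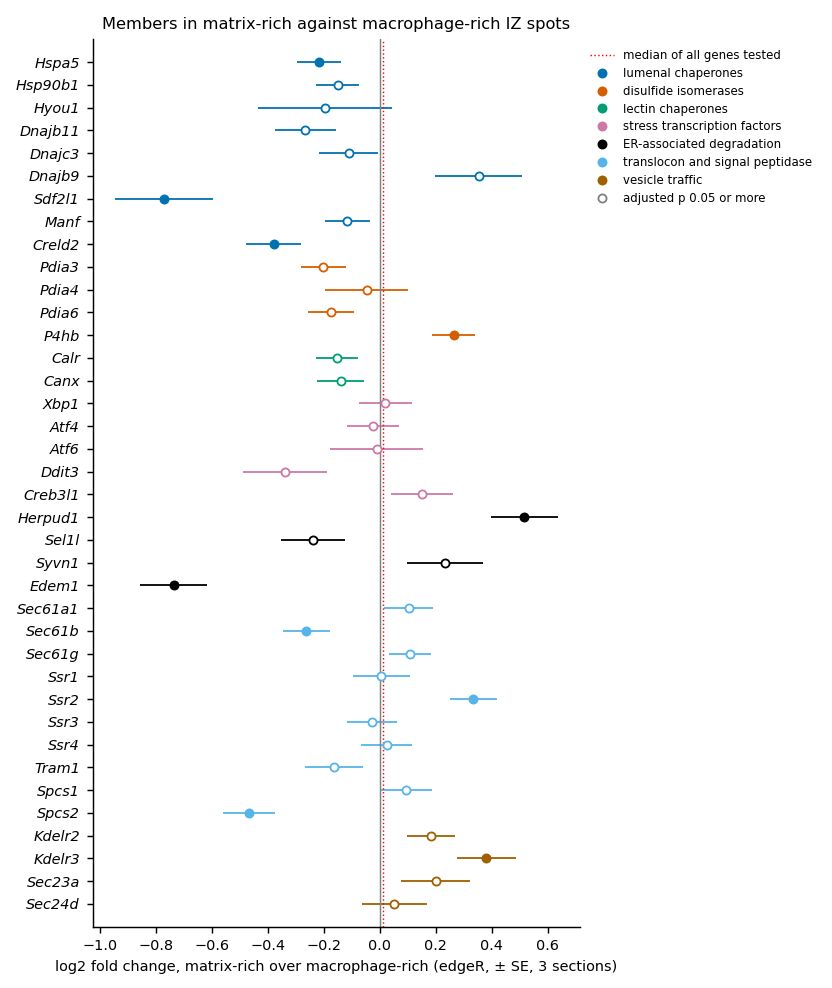
Log2 fold change of each member in matrix-rich over macrophage-rich spots of the infarct zone (x axis; edgeR, bars ± SE, 3 sections), coloured by role, with open circles for adjusted p of 0.05 or more. Most members lie near 0, with Herpud1 farthest right at 0.52 and Sdf2l1 farthest left at -0.77.

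Within the IZ, levels at 3 dpi were set beside those at 5 dpi, as values only, with 1 heart at 3 dpi and 2 at 5 dpi. At 3 dpi 21 members stood above both 5 dpi sections (55.3%, against 46.1% of the 8735 genes with a mean of at least 10 CPM) and 5 stood below both (13.2%, against 33.1%), and 0 differed by 2-fold from the nearest (against 1.5% of genes below both and 1.65% above). All 9 lumenal chaperones were among the 21. The makeup of the IZ differed between these hearts too, with cardiomyocyte genes at 20457 CPM at 3 dpi against 6719 and 8676 CPM at 5 dpi, matrix genes at 19914 against 36453 and 34327 CPM, macrophage genes at 17398 against 24543 and 23373 CPM and erythroid genes at 3331 against 22826 and 11897 CPM. Their part in these differences was not tested. Hspa5 at 3 dpi was 1.36-fold above the nearer 5 dpi section, Sdf2l1 1.44-fold, Creld2 1.28-fold and Hyou1 1.60-fold. Members below both 5 dpi sections included Ssr4, at 339 against 393 and 415 CPM, and Spcs1. P4hb, Calr, Xbp1, Kdelr2 and Kdelr3 at 3 dpi lay between the 2 hearts at 5 dpi.

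The RZ of the infarcted hearts was set beside the uninjured control in the same way. Of the 37 members with a mean of at least 10 CPM, 19 were higher in the RZ of all 3 hearts (51.4%, against 37.3% of 7505 genes) and 7 were lower (18.9%, against 18.5%). P4hb was higher, at 322, 343 and 235 CPM against 148 CPM, as were Kdelr3, at 25.6, 41.8 and 22.2 CPM against 9.89 CPM, the 1 member at least 2-fold higher in the nearest (2.7%, against 3.53%), and Edem1, at 21.8, 26.3 and 26.6 CPM against 11.2 CPM. Of the 8 lumenal chaperones with such a mean, 4 were lower in all 3 hearts, Dnajb11 was higher, and Hsp90b1, Dnajc3 and Creld2 lay between, as did both lectin chaperones. Hspa5 stood at 429, 449 and 329 CPM against 573 CPM in the control, Manf at 110, 99.1 and 108 CPM against 153 CPM, and Sdf2l1 and Dnajb9 were lower too. Ddit3 was also lower, at 32.4, 25.1 and 30.6 CPM against 43.6 CPM, and 0 members were lower by 2-fold (against 0.16%). Matrix genes in the RZ, at 5189, 7602 and 5467 CPM, stood above the 1518 CPM of the control, as did macrophage genes, at 4270, 4610 and 3542 CPM against 2423 CPM, while mural genes stood below it, at 403, 473 and 305 CPM against 542 CPM. The part of these cells in the differences was not tested.

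Genes of the same pathway outside the module were counted from 5 lists, by the same edgeR fit of IZ against RZ. Of 20 other folding factors, 19 were called higher and 0 lower, with a median of 0.80. The largest was Fkbp11, a prolyl isomerase of secretory cells, at 2.19 ± 0.17. Of 28 other vesicle coat and cargo genes, 20 were higher and 1 lower, from Tmed3 at 1.43 to Sar1b, the GTPase that starts the COPII coat, at -1.07. Of 21 genes of targeting and glycosylation, 12 were higher and 0 lower, with Stt3a, a catalytic subunit of the oligosaccharide transfer complex, at 1.34. Of 14 other stress sensors and effectors, 10 passed the filter on low counts, 6 of them higher, with the asparagine synthetase gene Asns at 1.90, and 1 lower, Wfs1, an ER membrane protein, at -1.59. Of 13 other degradation genes 12 were tested, with 5 higher and 2 lower. The share of all genes called higher was 26.8%, and the lists were drawn up with earlier results of these data known. Inside the IZ, of the 20 other folding factors, 7 were higher and 3 lower in the matrix-rich part (against 16.3% and 13.6% of all genes), from Pdia5 at 0.58 to Ero1b, an oxidase that recharges the isomerases, at -1.36.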

How the data were processed

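Visium sections were sequenced and mapped by the authors with Space Ranger 1.3.1 to an Ensembl-based mouse reference with GFP added (build mm10 in the submitters' notes), and spots under tissue were chosen by hand. The deposited matrices hold UMI counts as Space Ranger gave them, not normalized. The files hold no gene coordinates.

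Spots marked as under tissue were kept with at least 500 UMIs, 250 genes and at most 50% mitochondrial UMIs. The 13 mitochondrially encoded genes were left out of totals. Counts were summed per zone or part of a zone and section and tested with edgeR 4.0.16 (R 4.3.3; TMM, default filter on low counts, glmQLFTest, section as a block, Benjamini-Hochberg over all genes tested, threshold 0.05). DESeq2 1.42.0 and other settings were alternatives. The test was tried on simulated data. Each section is 1 heart, and n counts hearts. Total UMIs were 6250183 in the control and 10656544, 11010109 and 9701545 in the infarcted sections. Tables were made with Python 3.11.15. All 38 members are named, grouped by role, and of other lists the highest and lowest called gene, of which 1 is not reported here. The members, lists and tests were chosen with earlier results of these data known.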

Additional observations from a re-analysis of the deposited data

Results flagged for a closer look

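In 6 cases the 3 dpi section went one way and both 5 dpi sections the other. The difference between the time points was not tested, and there is 1 heart at 3 dpi. Between BZ2 and RZ, Hspa5 had a log2 ratio of CPM of 0.41 at 3 dpi and of -0.19 and -0.06 at 5 dpi. Between matrix-rich and macrophage-rich IZ spots, Creb3l1 had -0.13 at 3 dpi and 0.24 and 0.20 at 5 dpi. Between the RZ and the control section, Dnajc3 had -0.18 at 3 dpi and 0.46 and 0.27 at 5 dpi, Creld2 had -0.34 and then 0.10 and 0.20, and Sec24d had -0.063 and then 0.52 and 0.13. Canx ran the other way, with 0.34 at 3 dpi and -0.04 and -0.34 at 5 dpi.

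In 5 dpi M, 623 spots lay outside the tissue mark and entered no comparison. These spots were taken without the limits on UMIs, genes and mitochondrial share. They held 2229014 UMIs outside mitochondrial genes, and the 38 members stood at 9569 CPM in them. In the kept spots of the same section the members stood at 9338 CPM in the IZ and 4353 CPM in the RZ, and in the control section at 4170 CPM. The cardiomyocyte share of the spots outside the mark was 1.69%, and erythroid genes stood at 65502 CPM in them.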

How the results depend on the processing

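For IZ against RZ the count of members higher stayed within 1.5 times of 28 under all 14 alternatives, from 26 (without the section block, where Hspa5 and Sec61g lost their call, and without 5 dpi F) to 35 (library size alone), and at least 26 of the 28 kept their call in each. The IZ limit was also set lower and higher than 0.5. The 3 members lower became 1 with library size alone. The ratios of summed CPM to the control moved with the scale: 2.82 at 3 dpi and 2.91 at 5 dpi over all UMIs, 1.58 and 1.502 with TMM, and 2.02 at 3 dpi with cardiomyocyte genes left out. For BZ2 against RZ the 5 members higher became 3 with RLE size factors, DESeq2, no filter on low counts or the higher IZ limit, 12 with library size alone or the lower IZ limit, 0 without the section block, and 0 to 1 leaving out a section. For IZ against BZ2 the 27 higher became 16 without the block and 16 to 24 leaving out a section, and the 2 lower became 0 with library size alone, DESeq2 or no block and 0 to 2 leaving out a section. In matrix-rich against macrophage-rich spots the 4 higher became 1 without the block, 2 with the IZ cut into 2 equal parts instead of 3, and 2 to 3 leaving out a section, and the 6 lower became 11 with library size alone or the higher IZ limit, 3 with DESeq2 or the lower IZ limit, and 2 without the block. The share of all genes called is given at most for library size alone. With the other settings a changed count is therefore no result about the members.

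Signs turned in values that were not called in the first place. Spcs1, IZ against RZ, ranged from -0.046 (without 5 dpi F) to 0.29 leaving out a section. Hspa5, BZ2 against RZ, was 0.062 with library size alone, 0.017 with the higher IZ limit, and -0.27 to 0.024 leaving out a section, the upper value without 5 dpi F. Creb3l1 in matrix-rich spots was -0.0023 with the higher IZ limit. The cause was not tested. Leaving erythroid genes out, chosen after seeing the data, changed no count by over 1.5 times. With 3 infarcted hearts and 1 control the number of hearts limits every comparison, and members near 10 CPM, such as Hyou1, rest on few UMIs. Zones were compared within hearts, with the section as a block. Between hearts, no paired analysis was possible because the control, 3 dpi and 5 dpi groups are different hearts.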
